A study of Canis lupus familiaris with 15 samples.

Results

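The comparison described here sets P114, a cell line from a primary anaplastic carcinoma of the canine mammary gland, against CMT-U229, a line from a benign mixed mammary tumour. It consists of the 5 cDNA arrays, of 15 in the series, on which RNA of these 2 lines was hybridised together. The other 10 arrays set each of them against CMT-U335, a line from a primary osteosarcoma of the mammary gland. All cultures were grown to near confluence, and no treatment is given for any of them. Each tumour type is represented by a single established line, so differences are between lines and not between tumour types. Arrays were chosen by their titles, turned to P114 over CMT-U229 by their dyes, and described over all 5246 named genes. P114 carried Cy5 on replicates 1 and 2 and Cy3 on replicates 3, 4 and 5.

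Benign mixed tumours of the dog mammary gland hold luminal epithelial cells together with myoepithelial cells and matrix-rich stroma that can form cartilage or bone. Myoepithelial cells are the contractile cells around the milk ducts and are known for smooth muscle proteins such as myosin light chain kinase. Anaplastic carcinoma consists of poorly differentiated epithelial cells. Luminal cells are recognised by the keratins KRT8 and KRT18, which pair into filaments, and by the adhesion molecule EPCAM.

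A 2-colour array gives the ratio of a gene between 2 samples, not its level in either. The values are log2 ratios, so that 1 stands for a 2-fold difference, and a positive value stands for more RNA in P114. Whether a ratio reflects RNA per cell or the share of cells that express a gene cannot be told apart. The direction is likely and not settled, because the deposited values were read as Cy5 over Cy3 from the order of the channels in the labels. If the order were reversed, every sign below would turn. Once turned by dye, the 5 arrays correlated positively over all probes, at 0.09 to 0.22 for opposite dyes and 0.20 to 0.32 for the same dye order. How bright each spot was is not analysed here. Precision rests on the 5 arrays.

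Per the labels all 5 arrays are biological replicates, but the design text lists dye swaps and 1 or more biological replicates for each pair. By differences over the called genes replicates 1 and 3 lay close together, as did 2 and 5, and each of these couples has opposite dyes. Correlations over all genes did not single them out, at 0.47 for 1 and 3 and 0.42 for 2 and 5. They were 0.53 for 1 and 2 and 0.45 for 3 and 4, of the same dye order, and 0.44 for 1 and 5, of opposite dyes. Over the 383 called genes the median absolute difference between arrays was 0.175 within the first couple and 0.187 within the second. Between all other arrays it was 0.241 to 0.283. In the 31 called genes whose SD over arrays exceeded 0.5, it was 0.199 and 0.313 within couples against 0.635 to 1.15 elsewhere. If the couples are swaps of the same RNA, only 3 separate samples stand behind each value and the p-values over 5 arrays are too small. Whether cultures or extracts were shared was not tested.

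Called genes are those with a limma p, after Benjamini-Hochberg adjustment over all genes, under 0.05. Of 5246 genes 383 were called (7.30%), 174 of them higher in P114 (3.32%) and 209 lower (3.98%). The 7.30% is the share to set beside the count of called members in each list below. A difference of at least 2-fold was found for 93 of them (1.77% of all genes), 52 higher and 41 lower. At least 4-fold apart were 11 higher and 5 lower genes. The median ratio over all genes was -0.011, and that of the middle 50% of genes lay between -0.13 and 0.08. All but 1 called gene had the same sign on every array, the exception being LOC479328 (0.02 on replicate 2). With the apparent swaps averaged the count fell to 79, 42 higher and 37 lower. The call was kept by 171 of the 383 genes whichever array was left out.

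The largest positive ratios belonged to STEAP1 and TMEFF2. STEAP1, a membrane protein of a family of metal reductases, had log2 ratios of 3.87, 4.09, 3.47, 3.99 and 3.87 on replicates 1 to 5, a mean of 3.86 ± 0.10 (SE, n = 5 arrays; adjusted p = 9.56e-06, limma). Its values lay within a range of 0.62 across both dye orders. STEAP2, which encodes a related reductase and is the next protein-coding gene on chromosome 14 in the RefSeq gene table (assembly UU_Cfam_GSD_1.0), stood at 2.06 ± 0.20. On single arrays STEAP2 was lower in replicates 1 and 3 (1.51 and 1.47) than in the others (2.14 to 2.70). TMEFF2, a transmembrane protein with follistatin-like domains, had 2.72, 2.61, 2.78, 3.82 and 3.50, with replicates 4 and 5 above the rest (mean 3.09 ± 0.19). ACSL5, which activates long-chain fatty acids, gave 3.01, 1.66, 2.90, 2.89 and 2.01, lowest on replicates 2 and 5 (mean 2.49 ± 0.22). The squalene synthase gene FDFT1 was at 2.25 ± 0.14 and MOCS2, needed for the molybdenum cofactor, at 2.13 ± 0.14.

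ABCB1, the drug efflux pump P-glycoprotein, was 3.71-fold higher in P114 (1.89 ± 0.12, adjusted p = 0.000241), with single arrays from 1.45 to 2.27. Its neighbour ABCB4, a phospholipid transporter, stood at 0.56 ± 0.10, but lost its call without replicate 1, 2 or 5 (adjusted p up to 0.07). FABP3, a carrier of fatty acids, had 1.59, 1.15, 1.53, 3.61 and 1.37 (mean 1.85 ± 0.34). Replicate 4 was far above the other arrays, and the call was lost without replicate 1, 3 or 5, where the adjusted p reached 0.0641. Of the 14 largest positive ratios, 13 remained called whichever array was left out and 10 with the apparent swaps averaged. LAMA3, COL1A2, STEAP2 and FABP3 were the 4 not called with swaps averaged, with adjusted p of 0.0785, 0.0942, 0.0524 and 0.171.

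**Figure D1:**
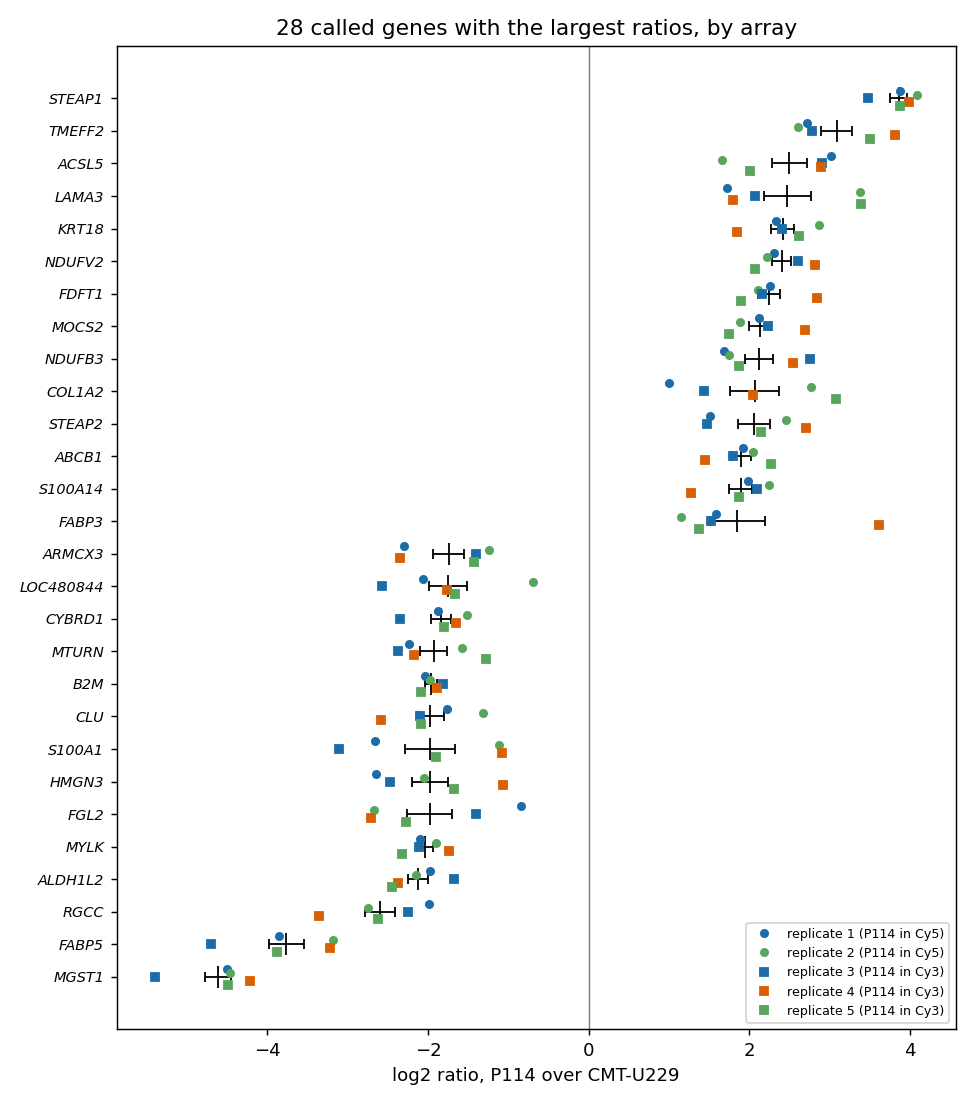
Log2 ratios of P114 over CMT-U229 for the 14 highest and 14 lowest called genes. Points are single arrays (circles with P114 in Cy5, squares with P114 in Cy3; apparent dye swaps share a colour), and vertical ticks with bars are the mean and limma's standard error. These genes were taken from called genes with the same sign on every array, so none could cross 0. FABP3 on replicate 4 (3.61) stands apart from its other arrays.

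The largest negative ratios belonged to MGST1 and FABP5. MGST1, a glutathione transferase of microsomal and mitochondrial membranes, had log2 ratios of -4.50, -4.46, -5.40, -4.21 and -4.49 (mean -4.61 ± 0.17, adjusted p = 4.03e-05). Replicate 3 was lower than the other arrays, which spanned less than 0.30. FABP5, the epidermal-type fatty acid carrier, gave -3.85, -3.18, -4.70, -3.22 and -3.87. RGCC, a regulator of the cell cycle, had -1.99, -2.75, -2.25, -3.35 and -2.63 and a mean of -2.59 ± 0.19. ALDH1L2, a mitochondrial folate enzyme, was 4.35-fold lower, with arrays from -2.44 to -1.67. FGL2, a fibrinogen-like protein of the immune system, was uneven, at -0.84 on replicate 1 and -2.71 on replicate 4. HMGN3, which binds nucleosomes, ranged from -2.64 to -1.06.

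CLU, which encodes the secreted chaperone clusterin, was at -1.97 ± 0.17 and CRYAB, the small heat shock protein alpha-B-crystallin, at -1.70 ± 0.18. The 4 probes of CRYAB had means from -2.36 to -0.85, so the size of its ratio depended on the probe. CYBRD1, an iron reductase, was at -1.84 ± 0.12, MTURN at -1.93 ± 0.17 and ARMCX3, a protein of the mitochondrial outer membrane, at -1.74 ± 0.19. LOXL3, an enzyme that crosslinks collagen and elastin, was lower by nearly the same amount on every array, from -1.89 to -1.54. The transcriptional coactivator YAP1 stood at -1.54 ± 0.14, with arrays from -2.04 to -1.05. These last 2 genes are named by their further place in the ranking and were chosen after their values were seen. All 14 of the lowest ratios stayed called whichever array was left out, and 9 with the apparent swaps averaged. With single arrays left out S100A1 came nearest to losing it (adjusted p up to 0.0483). ARMCX3, LOC480844, FGL2, HMGN3 and S100A1 were not called with swaps averaged. Their adjusted p in limma was then 0.0503, 0.0626, 0.0935, 0.0942 and 0.134.

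The labels of epithelial origin were set against markers. Of 7 measured luminal markers KRT18 and EPCAM rose in P114 and none fell (28.6% called, against 7.30% of all genes). The list median was 0.18. EPCAM had 1.79, 1.48, 2.08, 1.90 and 1.74 (mean 1.80 ± 0.10, adjusted p = 0.000152), and KRT18 had 2.33, 2.87, 2.40, 1.85 and 2.61 (mean 2.41 ± 0.14). KRT8, whose protein pairs with that of KRT18 and whose gene lies next to it on chromosome 27, had -0.25, 0.41, -0.50, -1.02 and -0.18. Its mean of -0.31 ± 0.19 was not called (adjusted p = 0.473, 95% interval -0.75 to 0.13), and that interval lies wholly below the interval of KRT18 (2.08 to 2.75). Against the osteosarcoma line, KRT8 stood at 2.46 in P114 and 2.56 in CMT-U229, whereas KRT18 stood at 3.48 and 0.79. These comparisons share lines with the one described here. KRT8 and KRT18 were each measured by only 1 probe. The junction genes DSP (0.07), JUP (0.23) and TJP1 (0.02) and the mucin MUC1 (0.18) were not called.

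The basal and myoepithelial list, with 11 measured genes, held 3 that rose and 2 that fell (45.45% called, against 7.30% of all genes). Its median was 0.06. The laminin chain LAMA3 (2.47 ± 0.29), the matrix protein SPARC (1.33 ± 0.21) and the membrane scaffold CAV1 rose, CAV1 evenly at 1.25, 1.17, 1.36, 1.22 and 1.11. MYLK, the kinase that starts smooth muscle contraction, fell on all arrays, at -2.10, -1.90, -2.11, -1.74 and -2.32. TPM2, a tropomyosin, was at -0.75 ± 0.11, although its 3 probes ranged from -1.37 to -0.08. The smooth muscle genes ACTA2 (-0.06), TAGLN (-0.37) and MYH11 (0.06) were not called. Among 22 contractile and actin-binding genes 2 rose and 3 fell, with a median of -0.06. MYL9, a myosin light chain, was at -0.71 ± 0.15, and its arrays ranged from -1.17 to -0.14. SPTAN1 (1.07 ± 0.17) and the membrane linker EZR (0.57 ± 0.12) were higher. All 3 of these calls depended on single arrays: MYL9 lost it without replicate 1, 3 or 5 (adjusted p up to 0.122), SPTAN1 without 3 or 5 (up to 0.0587) and EZR without 1, 2, 3 or 4 (up to 0.131).

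Of 7 mesenchymal markers 2 rose and none fell (28.6% called, against 7.30% of all genes), with a median of 0.47. S100A4, a calcium-binding protein of motile cells, was even over arrays at 1.48, 1.43, 1.41, 1.79 and 1.57. The proteoglycan DCN stood at 0.90 ± 0.21, and its call was lost without replicate 2, 3, 4 or 5 (adjusted p up to 0.139). VIM, the intermediate filament of mesenchymal cells, was at -0.04 ± 0.11 (95% interval -0.31 to 0.23) and the transcription factor ZEB1 at -0.17.

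Collagens and matrix glycoproteins were the list with the largest number of called genes but not the largest share. That share was 42.9%, against 7.30% of all genes. It was higher in the short lists of cell cycle inhibitors (57.1%) and basal markers (45.45%). Of 28 measured members 11 rose in P114 and 1 fell, and the list median was 0.37 against -0.011 for all genes. Members were chosen with earlier results known, and called collagen and matrix genes outside the list went both ways. LOXL3 and MATN2 were lower and stayed called with the apparent swaps averaged (adjusted p = 0.0181 and 0.0298, limma). CRTAP and P3H4 were higher and did not (0.122 and 0.172). COL1A2, a chain of type I collagen, had 0.99, 2.77, 1.43, 2.05 and 3.08 (mean 2.06 ± 0.30), and the means of its 3 probes ran from 1.45 to 2.81. LAMA3 had 1.73, 3.38, 2.07, 1.79 and 3.39. In both genes replicates 2 and 5 were the highest. The basement membrane chains LAMB1 (1.05 ± 0.12), COL4A2 (1.03 ± 0.18) and COL4A1 (0.69 ± 0.13) rose together, the last 2 from adjacent genes on chromosome 22. Enzymes and helpers of collagen folding rose as well, with the prolyl hydroxylase P4HA2 at 1.20 ± 0.10 and the collagen chaperone SERPINH1 at 0.86 ± 0.08. COL3A1 of fibrillar collagen was at 0.77 ± 0.10 and the fibrillin FBN1 at 0.65 ± 0.13, and SPARC and DCN complete the 11. EFEMP1, an extracellular glycoprotein, fell, with -0.91 on replicate 4 and values between -2.03 and -1.71 on the other arrays (mean -1.71 ± 0.17).

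SPP1, which encodes osteopontin, was not called in spite of a mean of 2.03 ± 0.55, because its arrays ran from 0.11 to 3.66 (adjusted p = 0.0795). Replicates 1 and 3 were near 0 (0.11 and 0.47), whereas 2, 4 and 5 were at 3.36, 2.53 and 3.66. Fibronectin, FN1, was at 0.83 ± 0.23 (adjusted p = 0.0772) with replicate 4 at -0.02. Leaving out 1 array gave 8 to 12 called genes in this list. COL4A1 and FBN1 lost the call without replicate 2, 3 or 5 (adjusted p up to 0.0827 and 0.0931) and COL4A2 without 2 or 3 (up to 0.0619). With the apparent swaps averaged P4HA2 alone remained called (adjusted p = 0.0438), while SERPINH1 and COL3A1 were at 0.0548.

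Among 10 measured matrix proteases and inhibitors 3 rose and 1 fell (40% called, against 7.30% of all genes). With the apparent swaps averaged, however, only CTSZ was called (adjusted p = 0.0447), and TIMP1, ADAM10 and CTSK were at 0.167, 0.0568 and 0.0568. TIMP1, an inhibitor of metalloproteinases, stood at 1.22 ± 0.19 with arrays from 0.48 to 1.81. The sheddase ADAM10 was at 0.75 ± 0.09 and cathepsin K, CTSK, at 0.64 ± 0.08, with every array between 0.53 and 0.83. The lysosomal cathepsin CTSZ was lower, from -0.88 to -0.51. Of 15 integrins and other adhesion receptors none rose and 2 fell: CD47, a surface signal to phagocytes, at -0.47 ± 0.10, and the laminin receptor DAG1 at -0.44 ± 0.08. Both lost the call without replicate 1, 2, 3 or 5 (adjusted p up to 0.118 and 0.0863).

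**Figure D2:**
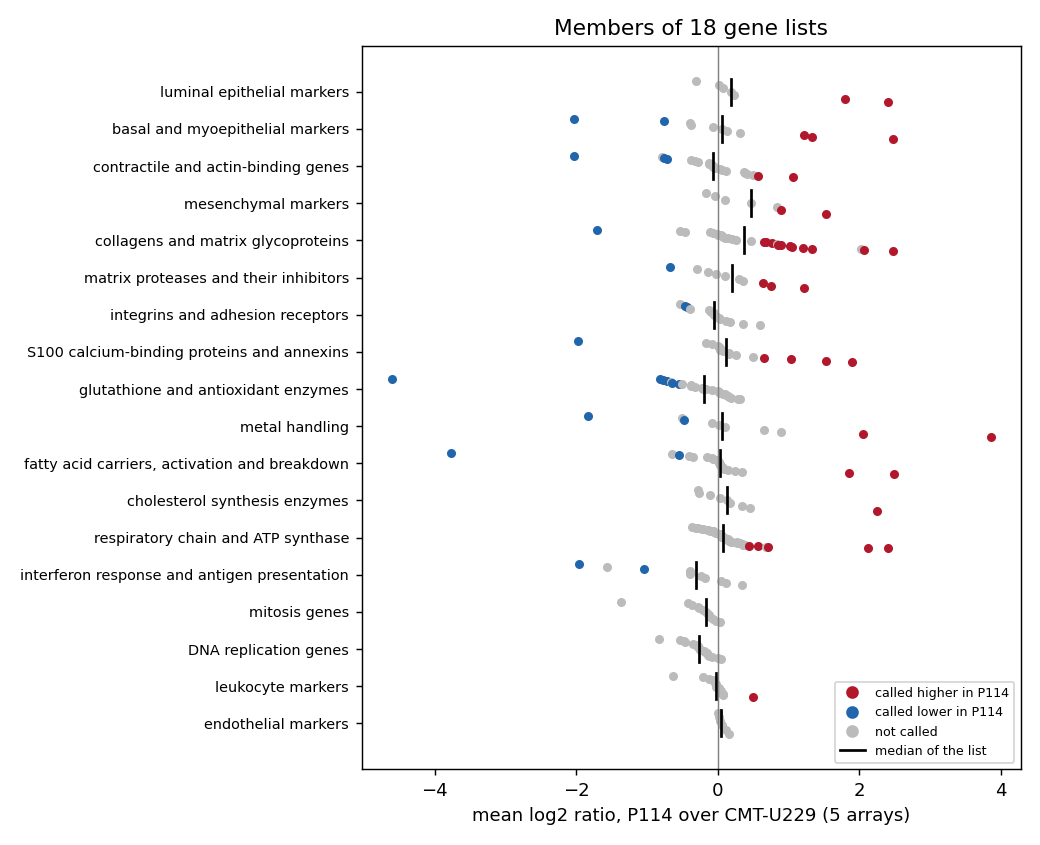
Mean log2 ratio of P114 over CMT-U229 for each measured member of 18 gene lists. Each point is a gene, coloured when called, and the black line is the median of the list. Matrix genes have 11 called members to the right of 0 and 1 to the left, whereas glutathione and antioxidant enzymes have 6 called members, all to the left.

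The S100 genes encode small calcium-binding proteins, and several of those measured lie near each other on chromosome 7. Of these, S100A14, S100A4 and S100A2 rose, S100A1 fell and S100A6 was not called. S100A1, known from muscle and nerve, had -2.66, -1.11, -3.11, -1.07 and -1.90 (mean -1.97 ± 0.31, adjusted p = 0.0115). With the apparent swaps averaged S100A1 was not called (adjusted p = 0.134, limma). S100A14, an epithelial member with 1 other protein-coding gene between it and S100A1, had 1.98, 2.24, 2.10, 1.27 and 1.87 (mean 1.89 ± 0.14). Both were named from called genes with the same sign on every array, so the ranges of these neighbours could not overlap. The ratios of S100A4 (1.54 ± 0.08) and S100A2 (1.03 ± 0.24) were smaller, and S100A11 on chromosome 17 rose as well (0.65 ± 0.11). S100A2 lost its call whichever array was left out (adjusted p from 0.0593 to 0.102). S100A6 was spread widely, with -1.81 on replicate 5 against 1.21 on replicate 3, and S100A10 ranged from -0.85 to 1.17. Of the annexins, their frequent partners, none was called. In all, 4 of 16 S100 and annexin genes rose and 1 fell (31.25% called, against 7.30% of all genes), with a median of 0.12.

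Of 26 glutathione and antioxidant enzymes none rose and 6 fell (23.1% called, against 7.30% of all genes), with a median of -0.19. With the apparent swaps averaged 2 were called, and 4 to 8 with 1 array left out. Beside MGST1, the group held catalase CAT (-0.81 ± 0.12), the glutathione transferases GSTK1 (-0.77 ± 0.10) and GSTA4 (-0.72 ± 0.07), the superoxide dismutase SOD1 (-0.65 ± 0.14) and the thioredoxin reductase TXNRD1 (-0.54 ± 0.09). GSTA4 was even over arrays, from -0.84 to -0.62, and MGST1 and GSTA4 remained called with the apparent swaps averaged (adjusted p = 0.0128 and 0.0455). SOD1 lost its call without replicate 1, 2, 3 or 5 (adjusted p up to 0.13) and TXNRD1 without 1 or 2 (up to 0.0574). PRDX1, a peroxiredoxin, was below 0 on 4 arrays and at 0.63 on replicate 4. NQO1, often studied beside them as a target of the NRF2 pathway, was at 0.10.

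In lipid metabolism members of the same family also differed in sign. Of 24 genes for carrying, activating and breaking down fatty acids 2 rose and 2 fell. FABP5 fell (-3.76 ± 0.22) and FABP3 rose (1.85 ± 0.34). FABP1 (0.04), FABP6 (-0.02) and FABP7 (-0.08) were not called. Among the fatty acid activating enzymes ACSL5 was called, whereas ACSL3 was at 0.34 ± 0.10 (adjusted p = 0.093), ACSL1 at 0.14, ACSL4 at -0.0006 and ACSL6 at -0.01. ACAA1, the peroxisomal thiolase of fatty acid breakdown, fell (-0.54 ± 0.08), and its 4 probes ranged from -0.79 to -0.04. In lipid synthesis 1 of 8 genes rose, the desaturase-related FADS3 at 0.71 ± 0.09. In cholesterol synthesis FDFT1 rose alone among 9 genes, whose median was 0.13. On single arrays that median ran from -0.23 on replicate 1 to 1.06 on replicate 4. Of 12 folate and one-carbon genes CTH, which makes cysteine, rose (0.50 ± 0.08) and ALDH1L2 fell. The call of CTH was lost without replicate 1 (adjusted p = 0.053).

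In metal handling 2 of 10 genes rose, STEAP1 and STEAP2, and 2 fell, CYBRD1 and the copper-binding ceruloplasmin CP (-0.48 ± 0.08). The share called was 40%, against 7.30% of all genes. The 4 probes of CP ranged from -0.95 to 0.02, and CP lost its call without replicate 1 (adjusted p = 0.0512).

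Of 50 subunits of the respiratory chain and ATP synthase 5 rose and none fell. That share of 10% was near the 7.30% of all genes, the list median was 0.08, and 2 or 3 members were called whichever array was left out. NDUFV2, a core subunit of complex I, had 2.31, 2.22, 2.60, 2.81 and 2.07 (mean 2.40 ± 0.12, adjusted p = 0.000119). NDUFB3, an accessory subunit of the same complex, had 1.68, 1.75, 2.76, 2.54 and 1.86 (mean 2.12 ± 0.18). The next subunit was NDUFC1 at 0.72 ± 0.13, followed by NDUFB9 (0.56 ± 0.11) and NDUFS7 (0.44 ± 0.08), so NDUFV2 and NDUFB3 stood far from the other measured subunits. Each of them was measured by only 1 probe. NDUFC1 lost its call without replicate 1 or 5, NDUFB9 without 1, 2, 3 or 4, and NDUFS7 whichever array was left out (adjusted p up to 0.0741, 0.11 and 0.0797). Of 16 glycolysis enzymes 2 rose, PGK1 at 0.74 ± 0.09 and GPI at 0.45 ± 0.10, and GPI lost its call whichever array was left out (adjusted p up to 0.14).

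Of 10 genes of antigen presentation and the interferon response none rose and 2 fell, B2M and DLA88, with a list median of -0.31. B2M, the light chain of class I molecules, was even over arrays, at -2.03, -1.97, -1.82, -1.89 and -2.09 (mean -1.96 ± 0.08, adjusted p = 4.3e-05), and its 2 probes had means of -2.03 and -1.90. The class I heavy chain DLA88 had -0.69, -1.55, -0.42, -0.58 and -1.99, with replicates 2 and 5 lowest (mean -1.05 ± 0.24). Its call was lost without replicate 1, 2, 3 or 5 (adjusted p up to 0.138). The interferon-induced ISG15 showed a larger split, with -3.36 and -4.31 on replicates 2 and 5 against -0.33, 0.30 and -0.13 on 1, 3 and 4, and was not called (adjusted p = 0.297). TAP1, a peptide transporter, and PSMB9, a subunit of the immunoproteasome, were also lowest on replicates 2 and 5 (-0.89 and -1.29, and -0.63 and -1.20). Neither TAP1 nor PSMB9 was called.

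Dividing-cell genes did not pass the test, and here a single array went against the others. None of 13 mitosis genes and none of 18 replication genes was called by limma, against 7.30% of all genes. An unadjusted p under 0.05 was reached by 1 and 2 of them. A SAM-type test called 1 mitosis gene, STMN1, and no replication gene. The list medians were -0.17 and -0.26. On replicate 4, however, 12 of 13 mitosis genes and 15 of 18 replication genes lay above 0, with medians of 0.34 and 0.31. On the remaining arrays the medians ran from -0.40 to -0.13 and from -0.70 to -0.11. The splicing, chaperone and proteasome lists, described below, also had medians above 0 on replicate 4 alone. STMN1, a regulator of microtubules, had -1.59, -2.60, -1.15, 0.90 and -2.39, and was called without replicate 4 (-1.93, adjusted p = 0.00705). PCNA, the clamp of DNA polymerase, had -0.46, -1.58, -0.47, 0.34 and -1.97. CCNB2, a mitotic cyclin, had -0.24, -1.39, -0.15, 1.35 and -1.36. Without replicate 4, 1 mitosis gene and 2 replication genes were called.

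For inhibitors of the cell cycle the same array stood apart. CDKN1A, the p21 inhibitor, had 2.34, 1.98, 2.52, 0.21 and 1.98 (mean 1.81 ± 0.32), and CDKN2C, the p18 inhibitor, had -1.51, -1.37, -1.43, -0.10 and -1.70 (mean -1.22 ± 0.22). Without replicate 4 they stood at 2.21 and -1.50 with adjusted p of 0.000318 and 0.000414, and without replicate 1, 2, 3 or 5 neither was called (adjusted p up to 0.0756 and 0.0814). Of 7 such genes 2 rose, CDKN1A and CCNG1 (0.57 ± 0.10), and 2 fell, RGCC and CDKN2C (57.1% called, against 7.30% of all genes). CCNG1 lost its call without replicate 1 (adjusted p = 0.0701). As a list, the immediate early genes also had their lowest median on this array (0.0047, against 0.48 to 0.76 on the others). DUSP1, a phosphatase of MAP kinases, had 2.19, 1.05, 2.28, 0.11 and 1.05 and FOS had 1.22, 0.47, 1.46, 0.06 and 0.53. Of 9 such genes 2 rose, DUSP1 (1.34 ± 0.31) and the matricellular protein CCN1 (1.29 ± 0.21), and 5 were called without replicate 4. DUSP1 lost its call without replicate 1, 2, 3 or 5 (adjusted p up to 0.142). What set replicate 4 apart was not tested.

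**Figure D3:**
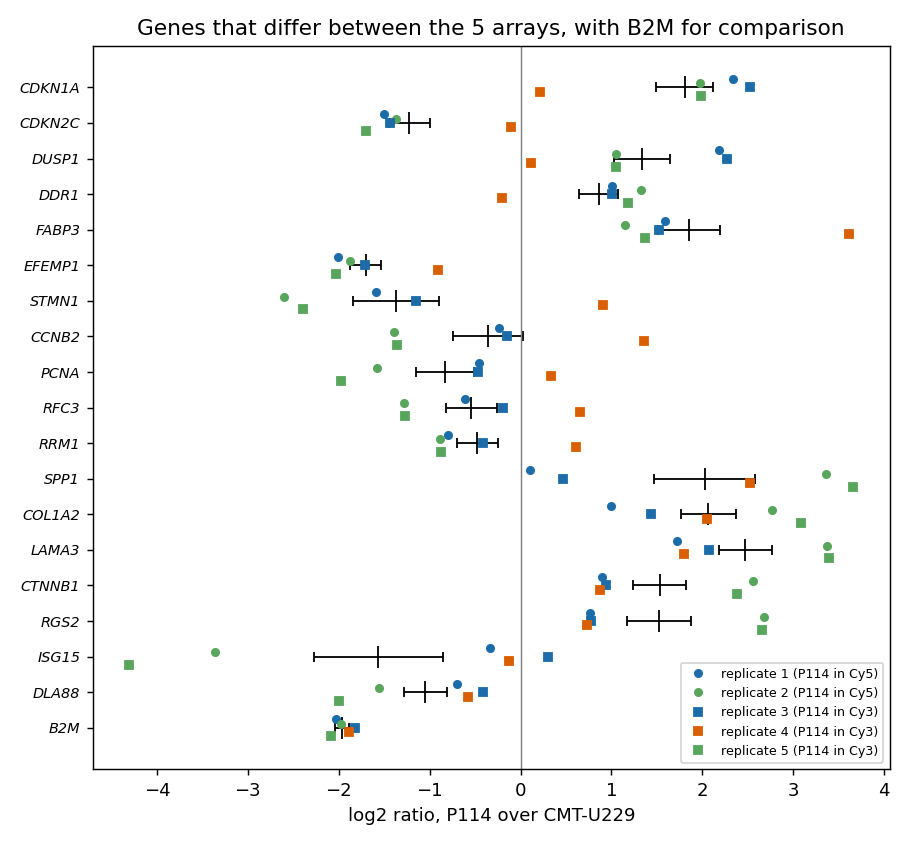
Log2 ratios of P114 over CMT-U229 on each array for genes that differ between arrays, with B2M for comparison. Points are arrays, with apparent dye swaps in the same colour, and bars show the mean and limma's standard error. Replicate 4 stands apart for CDKN1A (0.21), CDKN2C (-0.10) and STMN1 (0.90), and replicates 2 and 5 for CTNNB1 (2.55 and 2.39) and ISG15 (-3.36 and -4.31), whereas B2M lies between -2.09 and -1.82.

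Among signalling lists 2 of 9 Wnt genes, 1 of 14 TGF-beta and BMP genes and none of 12 receptor tyrosine kinases and ligands were called, against 7.30% of all genes. CTNNB1, which encodes beta-catenin, had 0.90, 2.55, 0.94, 0.88 and 2.39 (mean 1.53 ± 0.30), with replicates 2 and 5 apart, and lost its call without replicate 2, 3 or 5 (adjusted p up to 0.0845). RGS2, a regulator of G protein signals named after its values were seen, had nearly the same pattern, at 0.77, 2.68, 0.78, 0.74 and 2.65. It lost its call without replicate 1, 2, 3 or 5 (adjusted p up to 0.141). The Wnt antagonist DKK3 fell (-0.51 ± 0.11). DKK3 lost its call without replicate 1, 2, 3 or 5 (adjusted p up to 0.121). The TGF-beta and BMP gene called was TMEFF2. Of the receptor tyrosine kinases and ligands, 3 had an unadjusted p under 0.05 in limma, whereas the SAM-type test called 1, the collagen receptor DDR1. DDR1 had 1.00, 1.32, 1.01, -0.21 and 1.18 (adjusted p = 0.0594 in limma), and without replicate 4 it was called (1.13, adjusted p = 0.00142). The growth factor VEGFA, at 0.43 ± 0.16, was likewise called without replicate 4 (0.63, adjusted p = 0.0147). The receptors EGFR and ERBB2 were not called, with means of 0.32 ± 0.13 and 0.04 ± 0.09.

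Among binding proteins and hormone receptors 2 of 12 rose, the progesterone-binding membrane component PGRMC2 (1.17 ± 0.10) and IGFBP6, which binds insulin-like growth factors (1.01 ± 0.11). The growth hormone receptor GHR fell (-0.57 ± 0.10), its 13 probes ranged from -0.68 to 0.01, and the call was lost without replicate 2, 3 or 5 (adjusted p up to 0.0558). Of 16 transport pumps ABCB1, ABCB4 and ABCB6 (0.54 ± 0.10) rose and none fell. ABCB6 lost its call without replicate 1, 2, 3 or 5 (adjusted p up to 0.0796). Of 8 inflammation genes CD14 rose (0.50 ± 0.07) and FGL2 fell.

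In the large housekeeping lists the share of called genes ran from 3.33% of proteasome subunits through 7.5% of splicing genes to 12.5% of chaperones, against 7.30% of all genes. Of 56 ribosomal proteins RPS20 rose (0.60 ± 0.12) and RPS27A fell (-0.47 ± 0.09), of 29 translation factors EEF1E1 fell (-0.60 ± 0.07), and of 30 proteasome subunits PSMD11 fell (-0.40 ± 0.09). Of 40 splicing genes 3 fell, HNRNPR (-0.89 ± 0.14), SRSF4 (-0.48 ± 0.10) and SRSF10 (-0.41 ± 0.08). Of 19 folding genes of the endoplasmic reticulum PDIA5 rose (0.78 ± 0.12). Of 24 chaperones BAG3 rose (0.57 ± 0.13) and CLU and CRYAB fell. Calls of RPS20, RPS27A, PSMD11, SRSF4, SRSF10 and BAG3 were each lost without at least 4 of the 5 arrays in turn, where their adjusted p reached 0.103 to 0.134. On replicate 4 the list medians of chaperones, splicing genes and proteasome subunits were 0.33, 0.21 and 0.09. All of these medians were below 0 on every other array. Medians of ribosomal proteins, translation factors and folding genes of the endoplasmic reticulum were below 0 on replicate 4.

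Markers of other cell types gave no call among 6 endothelial genes, 21 genes of striated muscle and 2 of cartilage, in limma, the SAM-type test or at an unadjusted p under 0.05. With 7.30% of all genes called by limma, lists this short would hold few calls in any case. Of 16 leukocyte markers CD14 alone was called, while CD3E (0.03) and CD68 (0.02) lay near 0 and LCP1 was at -0.64 (adjusted p = 0.149). In the osteoblast list COL1A2 and SPARC rose among 6 measured genes, and both are also members of the matrix list. A ratio near 0 is also what a gene absent from both lines would give.

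The same contrast can be read along a second route, as P114 over CMT-U335 minus CMT-U229 over CMT-U335, on the other 10 arrays. MGST1 stood at -4.61 ± 0.17 directly and -4.77 ± 0.58 indirectly, FABP5 at -3.76 ± 0.22 and -4.04 ± 0.27, and STEAP1 at 3.86 ± 0.10 and 3.97 ± 0.20. KRT18 was at 2.41 and 2.68, EPCAM at 1.80 and 1.77, and MYLK at -2.03 and -1.97. No gene differed between routes in limma, and 17 of 5246 (0.324%) did so at an unadjusted p under 0.05. Chance alone would give a share near 0.05 if the standard errors matched the scatter, and the median p was 0.646. The standard errors are therefore wide for this difference, so the test could find few differences. The median absolute difference over called genes was 0.0993, against a median standard error of 0.20 for that difference. Of the 383 called genes 315 differed between routes by less than 1 standard error, which says little when that error is wide. The labels do not say whether the same RNA served several pairs, so the routes cannot be taken as independent samples.

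Of the called genes 6 differed by 0.5 or more between routes. CD47 stood at -0.47 directly and -1.28 indirectly, ARMCX3 at -1.74 and -2.37, and KCTD1 at -0.83 and -1.41. DBNL had opposite signs, at 0.45 and -0.32. The lowest unadjusted p of the difference belonged to PRPS2 (0.65 and -0.37, adjusted p = 1 in limma), which was not called, and to PSMD11 (-0.40 and -0.81). EZR followed at 0.57 and 1.03.

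**Figure D4:**
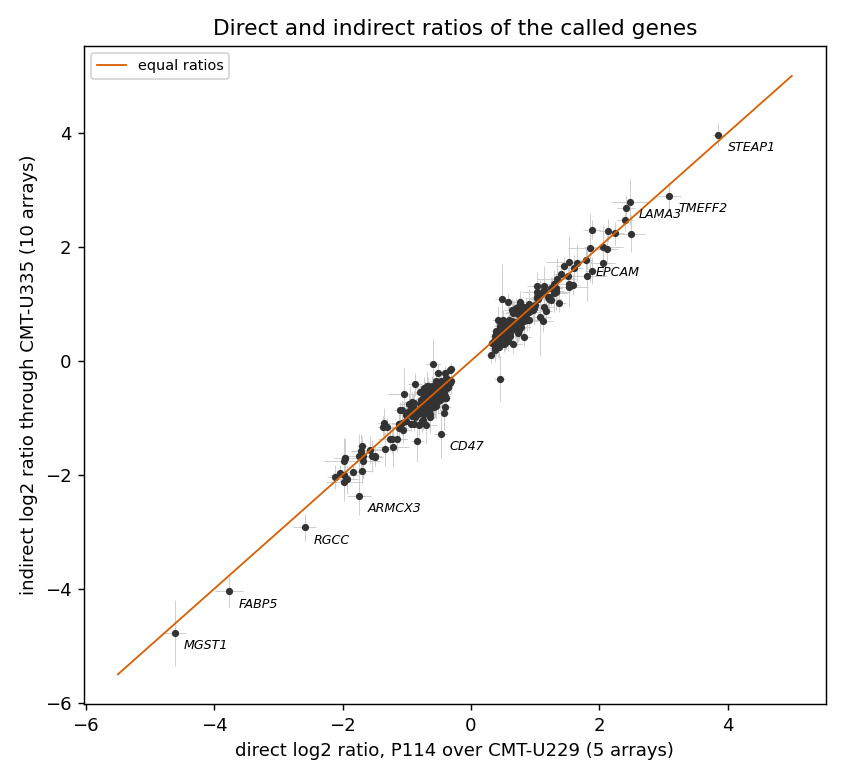
Direct log2 ratio of P114 over CMT-U229 (5 arrays) against the indirect ratio through CMT-U335 (10 arrays) for the 383 called genes. Points are genes, grey bars are limma's standard errors, and the line marks equal ratios. Most points lie near the line, while CD47 (-0.47 and -1.28) and ARMCX3 (-1.74 and -2.37) lie below it.

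Between the dye orders of the 5 arrays no gene differed in limma, with 393 of 5246 at an unadjusted p under 0.05, and the lowest adjusted p was 0.123. That count is above the share of 0.05 that chance alone would give. With 2 arrays set against 3, the test could find few differences. The median absolute difference between dye orders was 0.176 over all genes. It was 0.161 over called genes, whose selection favours agreement between arrays. No called gene had opposite signs in the dye orders, but this is not a check of the dyes. For 382 of the 383 the sign never changed from array to array, so the means by dye order could not differ in sign.

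Called genes were spread over all autosomes and X. By the chromosomes of the RefSeq gene table, chromosome 34 held 8 higher and no lower genes among 56 measured (14.3% against 3.32% of all genes). They included CMBL, a hydrolase (1.66 ± 0.08, arrays from 1.51 to 1.83), and the neighbouring ROPN1L (0.87 ± 0.12) and MARCHF6, a ubiquitin ligase (0.76 ± 0.08). The endocytic adaptor AP2M1 on this chromosome was at 0.87 ± 0.07. Chromosome 14 held 6 higher and 2 lower genes among 81 (7.41% higher), with STEAP1, STEAP2, ABCB1, ABCB4, CAV1 and COL1A2 the higher ones. Chromosome 23 had 9 lower and 5 higher genes among 79 (11.4% lower against 3.98%). The lower share was larger on chromosome 31, with 4 lower and 1 higher genes among 32 (12.5% lower). On chromosome 19, 4 genes were higher and none lower among 38 (10.5% higher). All these chromosomes were picked after their values were seen. These shares are descriptions, since neighbouring genes are not independent. Among the 14482 probes with no symbol 341 were also called when each probe was fitted by itself.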

How the data were processed

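Total RNA was amplified with T7 polymerase, and the cRNA was labelled with a dye, Cy3 or Cy5, per the labels' protocols. The deposited values are log2 ratios of the 2 dyes, normalized and log transformed by the authors, per the series design text. Neither the kind of normalization nor the log base is given in the sources used here. Base 2 was read from their range (largest absolute value 12.4). The authors' array medians lay between 0.0015 and 0.0078.

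Of 22176 probes 7694 carried 1 symbol, none several and 14482 none. Symbols were updated by Entrez identifier for 7340. Each gene was the mean of its probes on an array (3627 genes had 1 probe, 1619 more). limma 3.58.1 in R 4.3.3 tested the mean of 5 arrays against 0, two-sided, with Benjamini-Hochberg adjustment over 5246 genes, in place of SAM, which the series design names. The route comparison used a fit over all 15 arrays. The scripts were tested on simulated data. Lists (39, of which 38 had a measured member and the adipocyte list none) were described by counts and medians. Members and lists were chosen with earlier results of these data known. Genes were named as the 14 highest and 14 lowest called with the same sign on every array, and up to 4 called members of a list (2 members where none was called). The S100, FABP and ACSL families, luminal, mesenchymal and ERBB markers, and 5 genes by route difference were named as well. Values of further members are given where a list is described. The alternatives were centring, scaling, missing values, a dye term, probe medians, fits over 15 arrays, a replicate block, averaged swaps, SAM, thresholds, single probes and each array left out. All deposited columns belonged to the series.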

Additional observations from a re-analysis of the deposited data

Results flagged for a closer look

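Among 111 named genes, 7 had 1 array far from the other 4, by a gap of more than 0.71 of the range of the 5 arrays. About 1 in 20 groups is marked in this way by chance. Replicate 4 was the distant array for 5 of them. There CDKN1A was at 0.21 (others 1.98 to 2.52), CDKN2C at -0.10 (others -1.70 to -1.37), DDR1 at -0.21 (others 1.00 to 1.32), EFEMP1 at -0.91 (others -2.03 to -1.71) and FABP3 at 3.61 (others 1.15 to 1.59). MGST1 was at -5.40 on replicate 3 (others -4.50 to -4.21). PDIA5 was at 0.28 on replicate 1 (others 0.84 to 0.98).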

How the results depend on the processing

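The count of 383 called genes was 650 in a fit over all 15 arrays (262 higher, 388 lower), 1056 in a loop fit (388 and 668), 515 with the replicate number as a replicate block (216 and 299), 516 in the SAM-type test and 79 with the apparent swaps averaged (42 and 37; 55 at least 2-fold). At an adjusted p under 0.01 it was 159 (71 and 88) and under 0.10 it was 578 (329 lower). Genes with more than 1 probe gave 125 of the calls (54 higher, 71 lower, 24 at least 2-fold), and genes with 1 probe 138 of the lower ones. Leaving out 1 array gave 202 to 408 called genes, 94 to 153 higher, 100 to 255 lower and 79 to 103 at least 2-fold. The dye effect reached 1 gene with scaled arrays, and 0 to 1 with 1 array left out. No gene differed between routes in any alternative run. Of 81 called values of named genes none changed sign in any alternative, 29 lost it with some single array omitted, 54 with the swaps averaged, and 27 kept it throughout. Deviations of arrays of the same number in different pairs correlated with mixed signs (r from -0.248 to 0.333). The numbers were therefore not used to pair arrays in the main fit, and whether they share RNA was not tested. Signal over background is unknown, which limits every ratio of a dim gene.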

Other observations

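Some called genes with at least a 2-fold difference belong to none of the groups described above. They were chosen after their values were seen, and no test beyond the fit over all genes was made. Higher in P114 were ARAP3, a regulator of small GTPases, at 1.49, 1.43, 1.47, 1.39 and 1.75, and GALNT15, an enzyme that adds sugars to mucins, at 1.61 ± 0.14. The lysosomal protease CTSC stood at 1.44 ± 0.11 and CDS1, which makes a precursor of phosphoinositides, at 1.33 ± 0.09. UCHL1, a ubiquitin hydrolase of neurons, was at 1.25 ± 0.10, and the secreted glycoprotein hormone STC1 at 1.27 ± 0.16. RARRES2, which encodes the chemoattractant chemerin, lay between 0.98 and 1.20 on every array. UPP1, a uridine phosphorylase, had 0.48 on replicate 4 and 1.31 to 1.61 on the others.

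Lower in P114 were the transcription factor MITF (-1.15 ± 0.15), the transcriptional coactivator CITED1 (-1.58 ± 0.21) and BTG3, a growth-restraining gene (-1.49 ± 0.13). FARP1, an exchange factor for small GTPases, was even over arrays, from -1.95 to -1.40. The complement regulators CD59 (-1.34 ± 0.20) and CFI (-1.07 ± 0.17) both fell, and each was least changed on replicates 2 and 5, where CD59 was at -0.80 and -0.72 and CFI at -0.67 and -0.57. PCP4, a calmodulin-binding peptide, showed the same arrays apart, at -0.39 and -0.46 against -1.85, -1.80 and -1.56. PCP4 lost its call without replicate 1, 3 or 4 (adjusted p up to 0.11, limma) and CFI without replicate 3 (0.0562). PYGL, the liver form of glycogen phosphorylase, was at -1.12 ± 0.14, and the matrix protein MATN2 lay between -1.33 and -0.92.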
